A study of Mus musculus with 13 samples.

Results

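Hpgd and 9 other genes of prostaglandin and leukotriene metabolism were followed through 13 mouse mRNA sequencing libraries. The set holds Hpgd, Hpgds, Ptgs1, Ptgs2, Ptges, Pla2g4a, Alox5, Alox5ap, Ltc4s and Lta4h, which are 10 of the 24328 genes in the deposited tables. Hpgd was selected on its ratio between the leukemia stem cell library and the normal progenitor library, so that ratio is given here as a description with no test. The remaining 9 genes were chosen by name as enzymes of the same pathway, with earlier results of these data known. All 10 were found in every table.

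The libraries came from wild-type granulocyte-monocyte progenitors (GMP, 1 library), from MLL-AF10 leukemia stem cells (LSC, 1 library) and from mature AML cells (mAML, 1 library), and from LSC cultured with A-485 for 0, 8, 24, 48 or 72 h (2 libraries a time). MLL-AF10 is a fusion oncogene of acute myeloid leukemia, and A-485 inhibits the acetyltransferase activity of p300 and CBP. Per the labels all tissue was bone marrow, and the leukemia cells were grown in medium with serum and WEHI-conditioned medium. The 0 h libraries were untreated, the labels list no vehicle-treated group at the later times, and dose, strain, age and the number of leukemias are not given there. The labels do not say that the 2 libraries of a time came from separate cultures, so the p-values measure the spread between these libraries, which may be technical.

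Total counts ran from 24532508 to 47257642 in the 3 single libraries and from 6467764 to 9763276 in the 10 time-course libraries. The fragment length implied by the tables was 149.1 to 167.9 nt in the single libraries and 247.6 to 285.1 nt in the time course, so the LSC library and the 0 h libraries also differ in how they were made. In 3 time-course libraries (8 h library 2, 24 h library 2 and 72 h library 1) Wnt2 was at 21.2 to 59.3 TPM (abundance scaled for length and depth), against at most 2.17 TPM in the other time-course libraries. Calls in the 10 genes that change without these 3 libraries are given with and without them. Primary granule markers, which normal progenitors of this stage express, summed to 39839 TPM in GMP, 30172 TPM in LSC and 2260 TPM in mAML, and none was at 0 there. In bulk libraries such as these, fewer cells of a type and less RNA per cell cannot be told apart.

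Eicosanoids are lipid signals made from arachidonate. Phospholipase A2, encoded by Pla2g4a, frees arachidonate from membranes, and from there the pathway splits. In the prostaglandin arm the cyclooxygenases of Ptgs1 and Ptgs2 make the common intermediate, Ptges and Hpgds turn it into prostaglandin E and prostaglandin D, and the dehydrogenase of Hpgd starts the breakdown of prostaglandins. In the leukotriene arm Alox5, with its membrane partner Alox5ap, makes an unstable epoxide that Lta4h converts to the neutrophil attractant leukotriene B and Ltc4s to the cysteinyl leukotrienes. Neutrophils, monocytes, mast cells and eosinophils are known producers of leukotrienes, and platelets use Ptgs1.

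The start regions of 3 genes are shown because the results on the prostaglandin arm turn on them: Hpgd in the single libraries, and Ptgs1 and Ptgs2 in the time course. Each is the 250 bases before the annotated start, 5′ to 3′ on the gene's strand, from RefSeq on GRCm38.p6, a later build than the mm9 of the deposited tables. Hpgd lies at chr8:56294302-56294551, Ptgs1 at chr2:36230176-36230425 and Ptgs2 at chr1:150099781-150100030, all on the plus strand and upstream of the first exon. Capitals mark matches to the motifs searched.
Hpgd: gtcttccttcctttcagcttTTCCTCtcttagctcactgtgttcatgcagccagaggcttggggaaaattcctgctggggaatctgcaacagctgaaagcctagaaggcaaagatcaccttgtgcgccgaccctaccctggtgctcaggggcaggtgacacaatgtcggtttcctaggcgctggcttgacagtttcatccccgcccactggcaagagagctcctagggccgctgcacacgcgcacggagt
Ptgs1: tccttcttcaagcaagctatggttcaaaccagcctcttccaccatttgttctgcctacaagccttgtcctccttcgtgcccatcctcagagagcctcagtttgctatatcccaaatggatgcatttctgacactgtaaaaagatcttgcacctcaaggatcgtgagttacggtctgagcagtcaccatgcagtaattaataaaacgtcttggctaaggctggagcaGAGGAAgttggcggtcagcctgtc
Ptgs2: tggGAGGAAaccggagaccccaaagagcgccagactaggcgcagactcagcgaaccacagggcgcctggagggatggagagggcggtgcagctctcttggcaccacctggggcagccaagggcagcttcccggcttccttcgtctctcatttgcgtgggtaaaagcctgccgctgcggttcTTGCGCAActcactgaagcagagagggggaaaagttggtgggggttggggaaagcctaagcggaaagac
Both strands were searched, for the TATA box as TATAAA and for the C/EBP motif as TTGCNNAA. The motif of the ETS family, to which PU.1 belongs, was searched as GAGGAA. For the E-box, which MYC and its relatives bind, the letters were CACGTG. For the AP-1 factors, which the FOS and JUN genes encode, the letters were TGANTCA with any base in the middle. GAGGAA was found 230 to 225 bases before the Hpgd start, 24 to 19 bases before the Ptgs1 start and 247 to 242 bases before the Ptgs2 start. TTGCNNAA was found 69 to 62 bases before the Ptgs2 start and overlapped no other match. GAGGAA stood in the windows of 7 of the 9 genes with an entry and in 23.3% of all 32851 windows of this length. TTGCNNAA stood in 2 of the 9 and in 9.56% of all windows, and TATAAA in 1 of the 9 and in 12.4%. CACGTG and TGANTCA were in none of the 9 and in 6.02% and 6.75% of all windows. These are matches of letters only, and no binding was measured.

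Hpgd was among the most abundant mRNAs of the LSC and mAML libraries and nearly missing in GMP and in the LSC time course. It had 19 counts (0.76 TPM) in GMP, 50215 counts (1138 TPM) in LSC and 71777 counts (1407 TPM) in mAML. By TPM it ranked 134 of the genes in LSC, 122 in mAML and 10839 in GMP. The log2 ratio of LSC to GMP was 10.51, with an exact binomial interval of 10.11 to 11.49 that covers counting error only, and that of mAML to LSC was 0.40 (0.38 to 0.41). With 1 library a group none of these ratios has a replicate check.

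In the time course, whose cells carry the same LSC label, Hpgd was not detected at 0 h. The 2 untreated libraries held 0 counts among 18403213, and the whole time course held 1 count among 81456682, in 24 h library 1. On a scale set over all 13 libraries, the LSC library was at 1556 CPM (counts scaled to library depth), while 0 counts in the 0 h libraries allow at most 0.182 CPM (3 counts over the 2 libraries), so Hpgd was at least 8556-fold higher in the LSC library. Against all 10 time-course libraries with their 1 count, the ratio was 135322 with a counting interval of 24287 to 5345050. No change with A-485 could be measured in Hpgd, because it was already without counts before treatment.

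**Figure D1:**
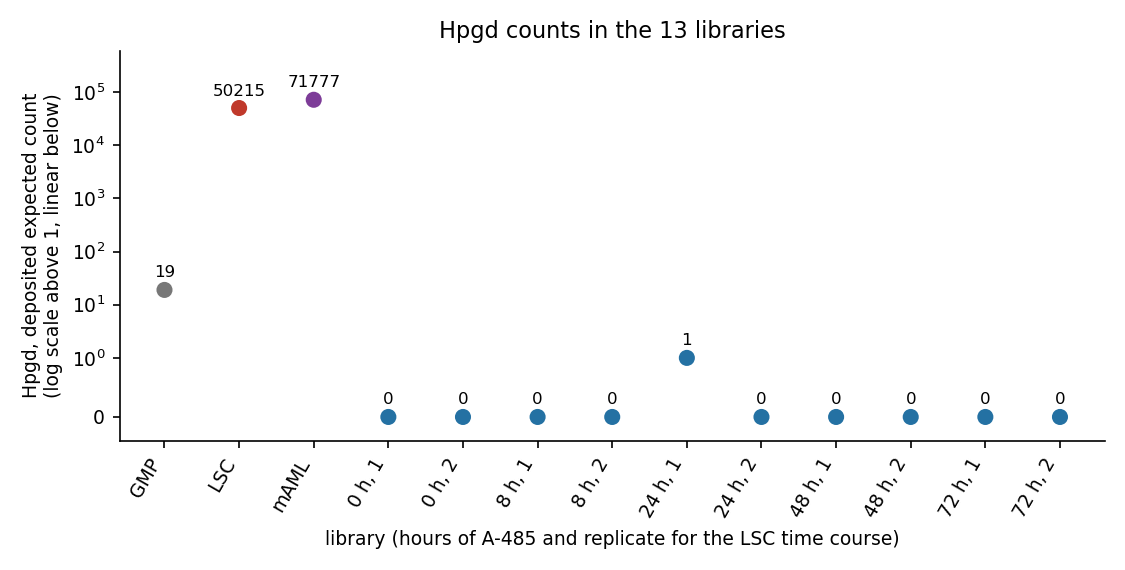
Deposited expected counts of Hpgd in each library, on a log axis above 1 and a linear one below; each point is 1 library and its count is printed above it. LSC (50215) and mAML (71777) stand far above GMP (19), and all time-course libraries are at 0 except 24 h library 1, with 1 count.

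Few abundant genes separated the LSC library from the 0 h libraries in this way. Of 122 genes at 1000 CPM or more in LSC, Hpgd was the only one with no count at 0 h. Of 2149 genes at 100 CPM or more there were 6 such genes: Hpgd, Penk, Dmrtb1, Sgip1, Gatm and Cntln. Penk, the enkephalin precursor gene, was at 301 TPM in LSC, 110 TPM in mAML and 0.80 TPM in GMP, and Dmrtb1, a DM-domain transcription factor gene, was at 218, 89.5 and 0.42 TPM in the same order. Gatm, a creatine synthesis gene, differed from Hpgd in GMP, where it was at 145 TPM. These genes were named after their values were seen.

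The genes with patterns nearest to that of Hpgd included genes of neutrophil granules. Likeness was measured as the root mean square difference of centred log2 CPM over 8 conditions (GMP, LSC, mAML and 5 times), among 10390 genes. The measure uses the LSC and GMP values on which Hpgd was chosen. Genes high in LSC and low in GMP therefore rank near Hpgd by construction, and the ranks are given as a description only. The nearest were Dmrtb1 (1.37), Camp (1.39), Penk (1.45), Fgr (1.72) and Olfm4 (1.81). Camp and Olfm4 encode proteins of neutrophil granules, and Fgr encodes a myeloid Src-family kinase. Camp was at 3288 TPM in LSC, 4299 TPM in mAML and 15.9 TPM in GMP, and Olfm4 at 684, 1451 and 0.85 TPM. Unlike Hpgd, both had counts at 0 h: 176 for Camp and 426 for Olfm4. Within the eicosanoid set the nearest was Alox5, at rank 95 (2.88), followed by Ptges at rank 233 (3.34) and Ptgs1 at rank 932.

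The neutrophil maturation list, like Hpgd, was lowest in GMP and highest in mAML among the single libraries. Its 12 members in the tables (of 14 listed) summed to 1969 TPM in GMP, 34926 TPM in LSC and 97969 TPM in mAML, with none at 0 in any of the 3. At 0 h they summed to 1981 to 7290 TPM, a range that starts at the GMP level, with Mmp8 at 0 in both libraries. Hpgd was at 0.76 TPM in GMP, 1138 TPM in LSC and 1407 TPM in mAML, so it rose less from LSC to mAML than the list did. At 0 h Hpgd had 0 counts. The part of these cells in the Hpgd level was not tested.

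Across the 3 single libraries, arachidonate release and the prostaglandin arm differed gene by gene. Pla2g4a, the phospholipase that frees arachidonate, was at 31.9 TPM in GMP, 28.1 TPM in LSC and 17.1 TPM in mAML. Its log2 ratio of LSC to GMP was 0.04, with a counting interval of -0.06 to 0.14, so no difference was detectable at this depth. Ptgs1 was at 29.9 TPM in GMP, 114 TPM in LSC and 32.6 TPM in mAML, so that LSC stood alone. Its log2 ratio was 2.15 (2.07 to 2.24) for LSC to GMP and -1.71 (-1.78 to -1.65) for mAML to LSC. Ptgs2, the inducible cyclooxygenase gene, stayed low, with 5, 33 and 184 counts in GMP, LSC and mAML, or 0.08, 0.29 and 1.41 TPM.

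Ptges, the prostaglandin E synthase gene, followed Hpgd in the order of GMP below LSC and mAML. It was at 0.40 TPM in GMP, 8.56 TPM in LSC and 6.48 TPM in mAML, a log2 ratio of LSC to GMP of 4.45 (4.05 to 5.34). Hpgds, the prostaglandin D synthase gene of mast cells and other blood cells, had 17, 12 and 12 counts and was at most 0.34 TPM. The mast cell, basophil and eosinophil list, all 14 members of which are in the tables, summed to 1620 TPM in GMP, 51.9 TPM in LSC and 54.8 TPM in mAML. Prg2, an eosinophil granule gene at 1064 TPM, led it in GMP, and the mast cell proteases Mcpt4 and Tpsb2 were at 0 in all 3 libraries.

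In the leukotriene arm the lipoxygenase and its partner were highest in mature cells and the hydrolase was lowest there. Alox5 was at 2.93 TPM in GMP, 8.67 TPM in LSC and 35.0 TPM in mAML. Its log2 ratio was 1.76 (1.51 to 2.08) for LSC to GMP and 2.09 (1.98 to 2.23) for mAML to LSC. Alox5ap was at 395, 712 and 1023 TPM in the same order, and so was far more abundant per transcript than Alox5 in each library. Its ratio of mAML to GMP was 1.68 (1.63 to 1.72). Lta4h was at 900 TPM in GMP, 824 TPM in LSC and 214 TPM in mAML, a ratio of -1.85 (-1.88 to -1.83) for mAML to LSC. Ltc4s, the cysteinyl leukotriene synthase gene, had 1, 5 and 7 counts and was at most 0.50 TPM. Other cell types moved with the mAML library: the erythroid list, all 9 members of which are in the tables, summed to 269 TPM in GMP, 7.99 TPM in LSC and 3913 TPM in mAML, led there by Hba-a1 at 2026 TPM. The monocyte and macrophage list (13 of 14 genes) summed to 5404, 4403 and 9733 TPM in the same order, of which Ly6c2 made up 4833, 3996 and 6849 TPM. The part of these cells in the leukotriene genes was not tested.

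Counted at 4-fold or more with at least 10 CPM in 1 of the 2 libraries, 7 of the 10 genes could be compared. Hpgd, Ptgs1 and Ptges were higher in LSC than in GMP and none was lower, where 3.88% of all genes considered were higher and 2.98% lower; this contrast chose Hpgd, so nothing is read from the count. With log2(TPM + 1) the ratio of Ptgs1 was under 4-fold and 2 genes were left. Between mAML and LSC, Alox5 was higher and no gene was lower, against 6.26% and 1.35% of all genes. Alox5 was close to that limit, and its count was lost with library size alone as the scale and with log2(TPM + 1). Between mAML and GMP, Hpgd, Ptges and Alox5 were higher and none was lower, against 9.11% and 2.83%. With log2(TPM + 1) Lta4h was also counted there, as lower (-2.07). The median log2 ratio of the 7 genes was 1.76 for LSC to GMP, -0.31 for mAML to LSC and 1.68 for mAML to GMP, beside 0.01, -0.03 and 0.02 over all genes considered. Hpgd is 1 of the 7, and each ratio uses 1 or both of the libraries it was chosen on. Nothing is therefore read from these medians or from the count for mAML to GMP.

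**Figure D2:**
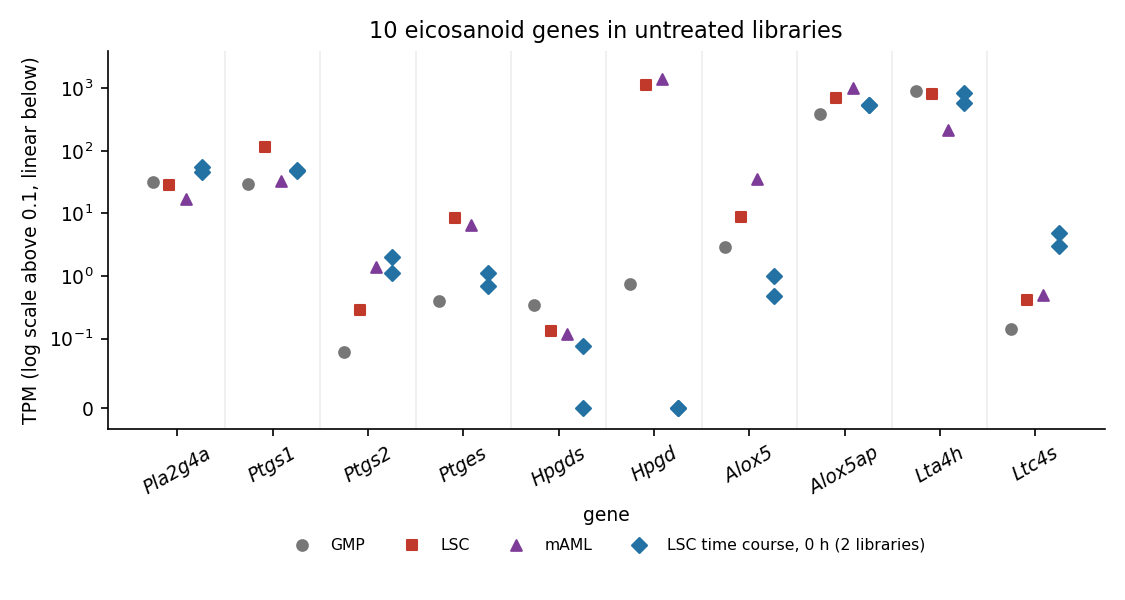
TPM of the 10 genes in the GMP, LSC and mAML libraries and in the 2 untreated time-course libraries (0 h), 1 point per library, on a log axis above 0.1 and a linear one below. Hpgd is above 1000 in LSC and mAML and at 0 in both 0 h libraries, while Alox5ap and Lta4h are above 200 in every library drawn.

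The LSC library and the 0 h libraries, which share a cell type label, also differed in other genes of the set. Alox5 was at 20.3 CPM in LSC and at 2.17 and 1.03 CPM at 0 h, a difference of 3.45 in log2. Ptges was at 26.2 CPM in LSC and at 1.94 and 3.10 CPM at 0 h, a difference of 3.23. Together with Hpgd these were the 3 of 7 genes considered that were at least 4-fold higher in LSC. None was at least 4-fold lower, against 5.12% and 6.22% of all genes. Hpgd was chosen on its level in this same LSC library, so nothing is read from the count. Ptgs1 differed by 1.35, Alox5ap by 0.67, Lta4h by 0.37 and Pla2g4a by -0.70. Fragment length moved with this difference and cannot be told apart from it.

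During A-485 treatment 6 of the 10 genes had enough counts to be fitted: Pla2g4a, Ptgs1, Ptgs2, Ptges, Alox5ap and Lta4h. Ptgs2 and Ptges passed the filter on low counts only through their 0 h libraries, so a fall from 0 h was built into being fitted and their changes against 0 h are given with no test. Of the other 4, none rose against 0 h at any time in the CPM fit, and 4 fell at 8 h, 3 at 24 h, 3 at 48 h and 3 at 72 h (edgeR's quasi-likelihood test, Benjamini-Hochberg adjusted over the 11119 genes tested). The response was broad in these cells: 21.0% of all tested genes fell and 17.9% rose at 8 h, 27.1% fell and 23.2% rose at 24 h, 30.5% fell and 25.2% rose at 48 h, and 29.4% fell and 25.9% rose at 72 h. Among the 10872 genes that also pass the filter without the 0 h libraries, as these 4 do, 20.3% fell at 8 h and 28.5% at 72 h. With all treated times tested together 4 of the 4 changed, beside 59.8% of all genes.

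The median log2 change of the 4 was -1.57 at 8 h, -1.18 at 24 h, -1.52 at 48 h and -1.83 at 72 h, where the median over the 10872 genes lay between -0.02 and 0.03 and that over all 11119 between -0.04 and 0.01. The median over all genes depends on the scaling. With library size alone it moved to 0.33 at 8 h and 0.35 at 72 h, and with log2(TPM + 1) to 0.41 and 0.62. The split of all genes at 72 h then changed from 2876 higher and 3272 lower to 4616 and 2228 with library size alone and to 6104 and 1638 with log2(TPM + 1). At 8 h the split of 1987 higher and 2337 lower became 4078 and 1520 with library size alone and 4859 and 1358 with log2(TPM + 1).

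Pla2g4a, the phospholipase gene, fell modestly in the CPM fit. Pla2g4a was at 45.6 and 56.1 TPM at 0 h, 48.7 and 42.3 at 8 h, 42.7 and 34.1 at 24 h, 37.6 and 43.6 at 48 h, and 33.3 and 35.0 at 72 h. On this scale the 8 h libraries overlapped those at 0 h, and the 24, 48 and 72 h libraries lay below them. In CPM its log2 change was -0.61 ± 0.17 (SE; adjusted p = 0.0196) at 8 h, -0.93 ± 0.17 (0.00223) at 24 h and -1.29 ± 0.17 (0.000326) at 72 h. The processing bears on this gene: at 8 h the call was lost with library size alone (-0.29, adjusted p = 0.177), and with limma on log2(TPM + 1), which changes the test, the scaling and the treatment of length together, it was lost at 8, 24 and 48 h (-0.15, -0.40 and -0.31; adjusted p = 0.439, 0.0585 and 0.111). The 8 h call was also lost without 0 h library 2 (adjusted p = 0.164) and without 8 h library 2 (adjusted p = 0.117). From 8 to 72 h Pla2g4a fell by 0.68 (adjusted p = 0.0151), a call lost with log2(TPM + 1) (0.0766), without 72 h library 1 (0.0807) or 2 (0.0539) and without 8 h library 1 (0.0788).

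The constitutive cyclooxygenase gene fell early and was lowest at 72 h. Ptgs1 was at 49.8 and 48.7 TPM at 0 h, 17.5 and 15.2 at 8 h, 26.5 and 25.4 at 24 h, 18.8 and 19.7 at 48 h, and 11.8 and 13.1 at 72 h. Both 0 h libraries stood above every treated library, and both 72 h libraries below every other. In CPM the mean was 115 ± 1.68 (SD, n = 2) at 0 h, 27.9 ± 3.52 at 8 h, 42.2 ± 0.558 at 24 h and 17.7 ± 1.85 at 72 h. The log2 change against 0 h was -2.04 ± 0.14 (SE; adjusted p = 4.12e-05) at 8 h and -2.69 ± 0.15 (adjusted p = 7.14e-06) at 72 h, the second a fold of 6.47.

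Comparisons between treated times use the 0 h libraries only through the shared fit. There Ptgs1 rose by 0.60 ± 0.14 from 8 to 24 h (edgeR, adjusted p = 0.0173). That rise was lost when only the libraries of those times were fitted (adjusted p = 0.121), without 24 h library 1 (0.0627), without 8 h library 2 (0.101) and without the 3 libraries with high Wnt2 (0.0877). From 8 to 72 h Ptgs1 fell by 0.65 ± 0.14 (adjusted p = 0.00879), a call also lost with only those times (0.0690), without 72 h library 1 (0.0577), without 8 h library 1 (0.0508) and with log2(TPM + 1) (0.0588). The 10 members of the megakaryocyte and platelet list summed to 169 to 189 TPM at 0 h and 105 to 249 at 8 h. The 8 h range of this list spanned that at 0 h, while Ptgs1 was below its 0 h level in both 8 h libraries. The list summed to 53.4 to 176 TPM at 24 h, 18.5 to 23.2 at 48 h and 14.8 to 35.1 at 72 h. Itga2b led this list at 0 h with 134 TPM and at 8 h with 158 TPM. Gp1bb, Gp6, Vwf and Treml1 were among its members without counts at 0 h. The part of such cells in the Ptgs1 level was not tested.

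The inducible cyclooxygenase gene went from low to undetected. Ptgs2 had 31 and 51 counts at 0 h, 9 and 14 at 8 h, 3 and 4 at 24 h, 2 and 1 at 48 h, and 0 and 0 at 72 h. Each later pair lay below the pair before it. The fitted log2 change from 0 h, given with no test, was -2.05 ± 0.59 (SE) at 8 h, -3.73 ± 0.67 at 24 h and -4.60 ± 0.75 at 48 h. At 72 h Ptgs2 was at least 29.3-fold lower than at 0 h (0 counts, floor of 3 counts over both libraries). The contrast of 72 h with 8 h compares no 0 h values, but Ptgs2 passed the filter only through the 0 h libraries of the shared fit. In that contrast the fall was called (edgeR, adjusted p = 0.00622). The call was lost without the 3 libraries with high Wnt2 and with log2(TPM + 1) (limma, adjusted p = 0.0776).

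Ptges, the prostaglandin E synthase gene, had 17 and 24 counts at 0 h and between 1 and 7 in each treated library. The treated libraries all lay below both 0 h libraries and overlapped one another. The fitted log2 change from 0 h, given with no test, was -2.23 ± 0.75 (SE) at 8 h, -2.55 ± 0.77 at 24 h, -1.68 ± 0.73 at 48 h and -2.83 ± 0.80 at 72 h. None of the steps between treated times passed the test in Ptges. Hpgds had at most 2 counts in any time-course library and was not tested.

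**Figure D3:**
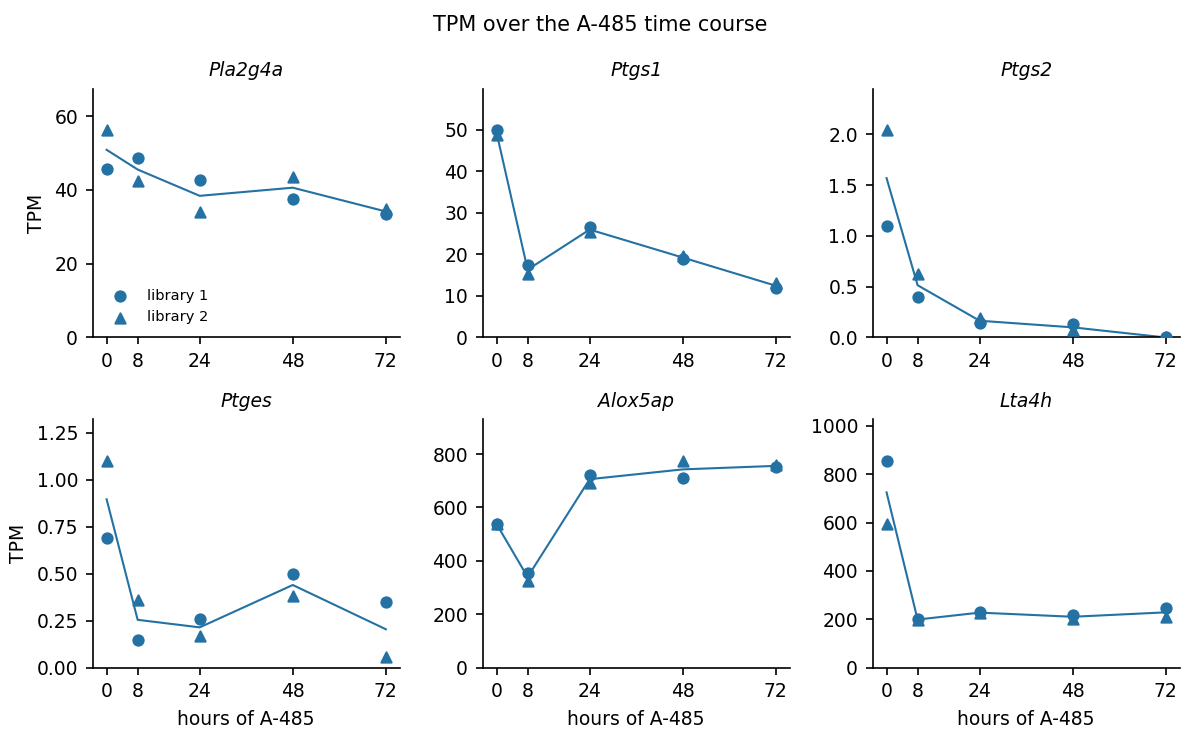
TPM of the 6 fitted genes against hours of A-485, each on its own axis from 0; points are single libraries (circles for library 1, triangles for library 2) and lines join the means of 2 libraries. Lta4h, Ptgs1, Ptgs2 and Ptges drop by 8 h in both libraries, and Alox5ap dips at 8 h (356 and 324) and stands at 753 and 758 at 72 h.

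In the leukotriene arm the hydrolase fell and stayed low. Lta4h was at 855 and 594 TPM at 0 h, 203 and 196 at 8 h, 230 and 226 at 24 h, 218 and 204 at 48 h, and 249 and 209 at 72 h. The 2 untreated libraries differed from each other more than the treated libraries did, and both stood above all treated ones. The log2 change in CPM was -2.31 ± 0.16 (SE; adjusted p = 4.66e-05) at 8 h and -2.37 ± 0.17 (adjusted p = 1.62e-05) at 72 h. From 8 to 72 h the change was -0.07 ± 0.16 (adjusted p = 0.781). The treated levels of 196 to 249 TPM lay around the 214 TPM of the mAML library, whose table comes from a library of shorter fragments.

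Alox5ap, the gene of the lipoxygenase partner, fell at 8 h and was back near its untreated level by 24 h. It was at 539 and 536 TPM at 0 h, 356 and 324 at 8 h, 721 and 691 at 24 h, 710 and 775 at 48 h, and 753 and 758 at 72 h. The 8 h libraries were the lowest in TPM, and all 6 later libraries lay above both 0 h libraries. In CPM the log2 change was -1.10 ± 0.11 (SE; adjusted p = 0.000189) at 8 h, -0.12 ± 0.11 (0.372) at 24 h, -0.22 ± 0.11 (0.114) at 48 h and -0.20 ± 0.11 (0.140) at 72 h. The rise from 8 to 24 h was 0.98 ± 0.11 (adjusted p = 0.00109), and from 8 to 72 h it was 0.90 ± 0.11 (adjusted p = 0.000534).

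Whether Alox5ap at 24 to 72 h was below, at or above its 0 h level depended on the scale. With log2(TPM + 1) it was higher by 0.39, 0.46 and 0.49 at 24, 48 and 72 h (limma, adjusted p = 0.00354, 0.00113 and 0.000784), where the median of all genes was itself higher by 0.43, 0.56 and 0.62. Relative to that median Alox5ap was therefore not above the other genes. With library size alone the changes were 0.19, 0.13 and 0.17 (adjusted p = 0.179, 0.314 and 0.219). The mean transcript length per read moved with time, from 3128 and 3115 nt at 0 h to 3787 and 3670 nt at 72 h, and after a correction of each library for that trend Alox5ap changed by 0.22, 0.29 and 0.22 (adjusted p = 0.0608, 0.0203 and 0.0548).

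Alox5 itself nearly vanished from the time course. It had 19 and 8 counts at 0 h, 1 and 2 at 24 h, and 0 in all libraries at 8, 48 and 72 h. It did not pass the filter on low counts. Counted against the floor of 3 counts, it was at least 10.4-fold lower at 8 h, 8.41-fold lower at 48 h and 9.63-fold lower at 72 h. With no filter its adjusted p was 0.0169 at 8 h, 0.0816 at 24 h, 0.0158 at 48 h and 0.0130 at 72 h. Ltc4s had 7 and 10 counts at 0 h, 6 and 1 at 8 h, 4 and 0 at 24 h, 11 and 7 at 48 h, and 0 and 2 at 72 h, with no order over time, and was not tested.

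Steps between treated times gave few calls in these genes. From 8 to 24 h, 2 of the 6 rose (Ptgs1 and Alox5ap) and 0 fell, beside 9.73% and 12.0% of all genes. From 24 to 48 h none changed, where 0.0270% of all genes rose and 2.10% fell, and from 48 to 72 h none changed, where 0% rose and 0% fell (edgeR). At an unadjusted p under 0.05 the counts were 1 and 2 of the 6 genes, beside 1448 and 498 of the 11119 genes, and DESeq2 called 0 in both steps. From 8 to 72 h, 1 rose (Alox5ap) and 3 fell (Ptgs1, Ptgs2 and Pla2g4a), beside 15.1% and 17.2% of all genes.

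**Figure D4:**
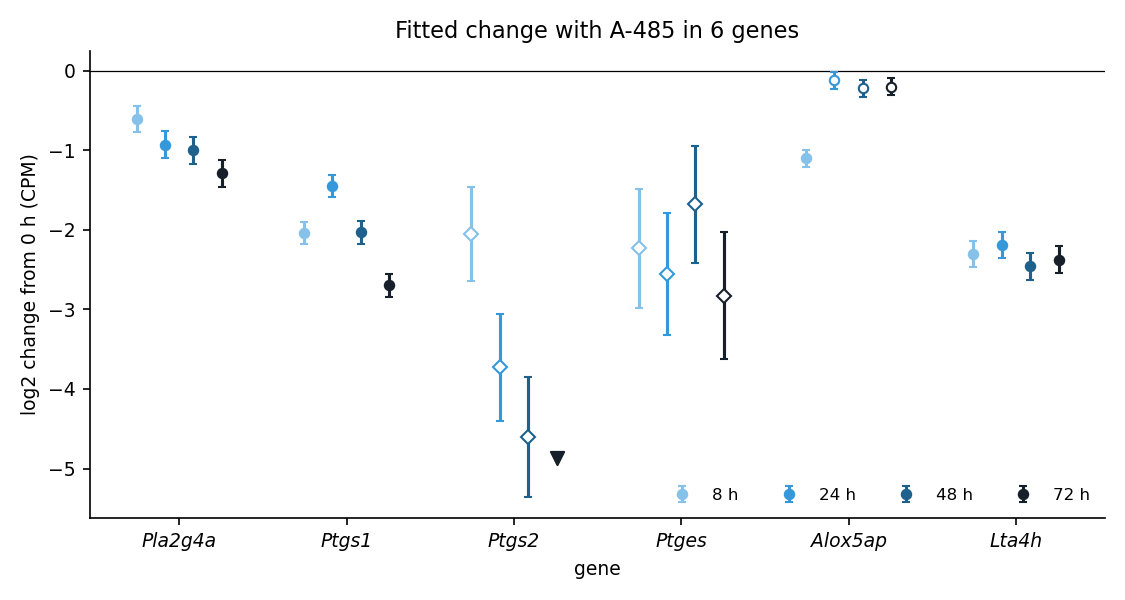
Fitted log2 change in CPM against 0 h for the 6 fitted genes at 8, 24, 48 and 72 h (light to dark), with bars of 1 SE; filled circles passed the adjusted p threshold of 0.05, open circles did not, open diamonds are values given with no test (Ptgs2 and Ptges), and the triangle is the bound for Ptgs2 at 72 h, where it had 0 counts. Lta4h stays near -2.3 at all times, Alox5ap is below -1 at 8 h only, and the bars of Ptgs2 and Ptges are the longest.

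The summed TPM of myeloid marker lists fell in the same libraries as these genes. The primary granule list, all 6 of whose members are in the tables, summed to 9460 to 9937 TPM at 0 h, 462 to 1377 at 8 h and 41.8 to 71.5 at 72 h, with Mpo at 0 at 72 h. The neutrophil maturation list (12 of 14 genes) went from 1981 to 7290 TPM at 0 h to 27.3 to 28.7 TPM at 72 h, with Camp, Mmp8, Mmp9, Retnlg and Olfm4 at 0 there. The monocyte and macrophage list (13 of 14 genes) went from 5469 to 7629 TPM at 0 h to 2825 to 3329 TPM at 8 h. It was at 316 to 352 TPM at 72 h, and Cx3cr1 and Cd163 were then at 0. Most of this sum was Ly6c2, at a mean of 6310 TPM at 0 h and 2993 TPM at 8 h. At 72 h Adgre1 led the list with 183 TPM, so the fall of the sum was mostly that of Ly6c2. The mast cell, basophil and eosinophil list went from 525 to 721 TPM at 0 h to 58.7 to 80.8 TPM at 72 h, with Mcpt4, Tpsb2, Cma1, Ear1 and Fcer1a at 0. The erythroid list went from 292 to 301 TPM at 0 h to 119 to 511 TPM at 8 h and 3.98 to 6.47 TPM at 72 h. The part of cell composition in the falls of Ptgs1, Lta4h and Pla2g4a was not tested.

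Of 75 other genes of the eicosanoid pathway, listed by role, 26 were under 1 TPM in all 13 libraries and 39 could be tested in the time course. Of the 39, 19 fell and 0 rose at 8 h, 15 fell and 3 rose at 24 h, 14 fell and 3 rose at 48 h, and 18 fell and 4 rose at 72 h. Of all genes tested 21.0%, 27.1%, 30.5% and 29.4% fell and 17.9%, 23.2%, 25.2% and 25.9% rose at these times. The median log2 change of the 39 was -0.81 at 8 h and -0.53 at 72 h, beside 0.01 and -0.02 over all genes. Of the 39, Mgll, Ptgds and Ptger2 passed the filter on low counts only through the 0 h libraries, and without these 3 genes 17 fell at 8 h, 13 at 24 h, 12 at 48 h and 15 at 72 h. The split depended on the processing at the later times: with limma on log2(TPM + 1) 15 fell and 3 rose at 8 h, 10 fell and 10 rose at 24 h, 8 fell and 13 rose at 48 h, and 9 fell and 15 rose at 72 h. Without the 3 libraries with high Wnt2, 18 fell and 3 rose at 8 h, 15 fell and 5 rose at 24 h, 19 fell and 5 rose at 48 h, and 19 fell and 5 rose at 72 h. Single libraries also moved the number that fell, to 10 at 8 h without 0 h library 1, 10 at 24 h without 0 h library 1 or 24 h library 2, 7 at 48 h without 0 h library 2 or 48 h library 2, and 10 at 72 h without 0 h library 2. The named genes below were picked from each list by a rule given with the processing. For the time course it ranks by adjusted p and not by size of change.

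Among 18 other genes of arachidonate release 7 were tested, and 5 fell at 8 h, beside 21.0% of all genes. Mgll, 1 of the 5, passed the filter on low counts only through its 0 h libraries. Pla2g12a, a secreted phospholipase gene, was at 97.8 and 86.1 TPM at 0 h and between 38.1 and 50.4 TPM in the treated libraries, a log2 change of -1.51 ± 0.18 at 8 h (adjusted p = 0.000409). Faah, which breaks down anandamide, fell by 2.03 ± 0.30 at 72 h (adjusted p = 0.000566). Pla2g15, a lysosomal phospholipase gene, went the other way, from 57.7 and 50.5 TPM at 0 h to 263 and 228 TPM at 72 h, a rise of 1.47 ± 0.28 (adjusted p = 0.00237). Pla2g12a was at 21.3 TPM in GMP but 0.88 TPM in LSC and 0.48 TPM in mAML, so the LSC library and the 0 h libraries differed in it as well, in the direction opposite to Hpgd. Mgll, which cleaves the arachidonate-bearing endocannabinoid glycerol ester, was at 0.52 TPM in GMP and 11.0 TPM in LSC, a log2 ratio of 4.51 (4.14 to 5.26).

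In arachidonate reuptake 6 of 7 genes were tested, and 3 fell and 0 rose at 72 h, beside 29.4% and 25.9% of all genes. Acsl3, an acyl-CoA synthetase gene, fell by 2.13 ± 0.27 (adjusted p = 0.000276), and Lpcat3, a lysophospholipid acyltransferase gene, by 0.62 ± 0.12 (adjusted p = 0.00273). Acsl4 was at 0.53 ± 0.12 below its 0 h level in log2 CPM (adjusted p = 0.00623) while its TPM of 30.6 and 24.6 overlapped the 22.8 and 25.5 at 0 h. On the log2(TPM + 1) scale Lpcat3 and Acsl4 were higher by 0.09 and 0.18 with no call (adjusted p = 0.504 and 0.302), and with library size alone both calls were lost too (adjusted p = 0.0989 and 0.268). Lpcat1 was lower in LSC (7.34 TPM) than in GMP (22.7 TPM) and mAML (21.0 TPM).

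Among other prostanoid synthases 7 of 9 were tested, and 1 fell at 8 h and 3 at 72 h, beside 21.0% and 29.4% of all genes. The 3 at 72 h include Ptgds, which passed the filter on low counts only through its 0 h libraries. Tbxas1, the thromboxane synthase gene, was at 66.9 and 68.8 TPM at 0 h, 35.7 and 26.4 at 8 h, 89.7 and 100.4 at 24 h and 114 and 111 at 72 h. It fell by 1.57 ± 0.16 at 8 h (adjusted p = 0.000237), rose by 1.54 ± 0.16 from 8 to 24 h (adjusted p = 0.000891) and at 72 h had a log2 change of 0.02 ± 0.16 from 0 h (adjusted p = 0.934). Ptges2 fell by 1.00 ± 0.23 at 72 h (adjusted p = 0.00624) and Ptges3, also known as the cochaperone p23, fell by 0.56 ± 0.18 (adjusted p = 0.0241). Both calls were lost with log2(TPM + 1), where Ptges2 was at -0.28 (adjusted p = 0.225) and Ptges3 turned to 0.15 (adjusted p = 0.494), and that of Ptges3 was also lost when any library of 0 or 72 h was left out.

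Of 9 prostanoid receptors 4 were tested, and 3 fell and 0 rose at 8 h, while 2 fell and 1 rose at each of 24, 48 and 72 h. Ptger2 fell at each time but passed the filter on low counts only through its 0 h libraries. Of all genes 21.0% fell and 17.9% rose at 8 h, and 29.4% fell and 25.9% rose at 72 h. Ptgir, the prostacyclin receptor gene, was at 23.0 and 25.8 TPM at 0 h, 4.77 and 3.96 at 8 h, and 2.91 and 2.37 at 72 h. Its log2 change was -2.93 ± 0.20 at 8 h (adjusted p = 3.46e-05) and -3.92 ± 0.21 at 72 h (adjusted p = 7.14e-06). Ptger4, a prostaglandin E receptor gene, fell by 0.69 ± 0.21 at 8 h (adjusted p = 0.0287) and was 0.11 ± 0.20 above 0 h at 72 h (adjusted p = 0.673). The 8 h call of Ptger4 was lost without the 3 libraries with high Wnt2 (adjusted p = 0.0973) and with log2(TPM + 1) (adjusted p = 0.391).

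Of the prostanoid clearance and transport genes, which act beside Hpgd, 3 of 5 were tested. At 8 h 1 fell and 0 rose, beside 21.0% and 17.9% of all genes. At 72 h 2 fell and 0 rose, beside 29.4% and 25.9%. Ptgr1, a prostaglandin reductase gene, was at 124 TPM in GMP, 111 TPM in LSC and 42.3 TPM in mAML, against 13.2 and 12.5 TPM at 0 h. It fell by 1.64 ± 0.46 at 72 h (adjusted p = 0.0158), a call lost with log2(TPM + 1) (adjusted p = 0.0972), without 0 h library 1 (0.0632) or 2 (0.0531) and without 72 h library 1 (0.0882). Abcc4, an exporter of prostaglandins, fell by 1.37 ± 0.30 at 8 h (adjusted p = 0.00727). Its fall was also called at 24 and 72 h, but not at 48 h (-0.59, edgeR, adjusted p = 0.116). Ptgr2, another reductase gene, rose by 0.41 ± 0.10 at 24 h (adjusted p = 0.00855). It was not called at 8, 48 or 72 h (0.27, 0.23 and 0.13, edgeR, adjusted p = 0.0608, 0.0797 and 0.284).

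Downstream of the leukotrienes, the receptor gene Ltb4r1 and the inactivating enzyme gene Cyp4f18 fell with A-485. Ltb4r1, the high-affinity leukotriene B receptor, was at 83.2 TPM in GMP, 239 TPM in LSC and 191 TPM in mAML. In the time course it was at 72.5 and 43.3 TPM at 0 h, 6.98 and 0.15 at 8 h, and 2.69 and 3.95 at 72 h, a log2 change of -4.80 ± 1.12 at 72 h (adjusted p = 0.00646). Its 8 h and 24 h libraries differed widely within a time, with 19.7 and 2.84 TPM at 24 h, and the lower value of each pair came from a library with high Wnt2. Without the 3 such libraries its change was -3.46 at 8 h (adjusted p = 8.37e-05) and -4.53 at 72 h (adjusted p = 1.33e-05).

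Cyp4f18, which inactivates leukotriene B in neutrophils, was at 9.24 TPM in GMP, 3.48 TPM in LSC and 181 TPM in mAML, and its log2 ratio of mAML to LSC was 5.74 (5.56 to 6.04). It fell from 17.3 and 16.9 TPM at 0 h to 0.33 and 0.89 TPM at 72 h (-5.45 ± 0.69, adjusted p = 0.000265). Its relative Cyp4f13 moved the other way, from 7.45 and 9.78 TPM to 27.0 and 31.8 TPM at 72 h, a rise of 1.07 ± 0.25 (adjusted p = 0.00706, and 0.0502 without 0 h library 1). Abcc1, the leukotriene C exporter gene, fell by 0.81 ± 0.11 at 8 h (adjusted p = 0.00102) and was 0.04 ± 0.11 from its 0 h level at 72 h (adjusted p = 0.767). Mgst2, a microsomal transferase gene that can make leukotriene C, was at 127 TPM in GMP, 328 TPM in LSC and 49.2 TPM in mAML.

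Of 8 other lipoxygenases and helpers 2 were tested, both of them helpers. Of these, 2 fell at 8 h, 0 at 24 h, 0 at 48 h and 1 at 72 h, and none rose. Of all genes 21.0%, 27.1%, 30.5% and 29.4% fell at these times. Gpx4, which reduces lipid hydroperoxides, fell by 1.17 ± 0.11 at 8 h (adjusted p = 0.000176), rose by 1.10 ± 0.11 from 8 to 24 h (adjusted p = 0.000865) and differed from 0 h by 0.04 ± 0.11 at 72 h (adjusted p = 0.770). Cotl1, a partner of the Alox5 enzyme, was at 212 TPM in GMP, 624 TPM in LSC and 940 TPM in mAML. In the time course it fell by 1.53 ± 0.50 at 8 h (adjusted p = 0.0389), with 159 TPM in library 1 and 65.4 TPM in library 2 at that time, the second a library with high Wnt2. Without those 3 libraries the Cotl1 change at 8 h was -1.01 (adjusted p = 0.000153), and without 8 h library 2 alone it was -1.01 (adjusted p = 0.172). The 5 listed genes of the epoxide branch had too few counts to be tested.

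**Figure D5:**
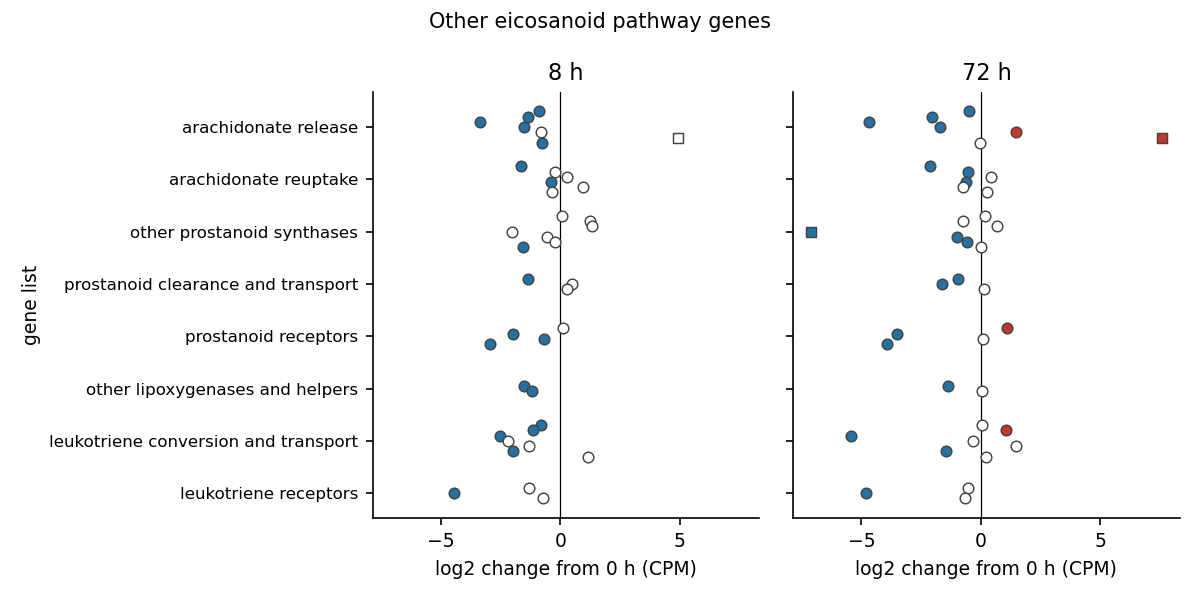
Log2 change in CPM against 0 h at 8 h (left) and 72 h (right) for the 39 tested other pathway genes, grouped by list; each point is a gene, blue fell, red rose, open did not pass the adjusted p threshold of 0.05, and squares are genes with 0 counts in 1 of the 2 times, whose values depend on the prior count. At 8 h 19 are blue and 0 red, and at 72 h 18 are blue and 4 red. Mgll, Ptgds and Ptger2, drawn here too, passed the filter on low counts only through their 0 h libraries.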

How the data were processed

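STAR and RSEM with build mm9 are named in the submitters' processing notes; neither versions, settings nor strand are stated there. Per the file headers, each deposited table holds an expected count per gene, RSEM's estimate of its reads, with no scaling for depth. Beside it stands the TPM as the authors deposited it, which RSEM scales by length and depth. The 10 genes and all lists were chosen with earlier results of these data known.

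Expected counts of the 10 time-course libraries were rounded and fitted with edgeR 4.0.16 in R 4.3.3 (TMM scaling, filterByExpr, quasi-likelihood F test, time as a factor, no block), and p-values were adjusted by Benjamini-Hochberg over 11119 genes; the SE is the log2 change divided by the root of F. The common biological coefficient of variation was 0.186. GMP, LSC and mAML have 1 library each, so only log2 ratios of CPM (prior count 5) with 95% exact binomial intervals are given; intervals and floors cover counting error only. Alternatives used limma 3.58.1 and DESeq2 1.42.0, 1 choice at a time (limma on log2 TPM changes test, scaling and length together), among them a length trend removed per library. The named other pathway genes were up to 3 per list by smallest adjusted p over the treated times, at 5 CPM or more and called at 1 or more times, plus the one with the largest LSC to GMP ratio at 10 CPM or more. One gene that this rule names is counted in its list, but its values are not reported here. Tests were checked on simulated counts. The Alox5ap start region is not shown. No exon of the 10 genes overlapped another gene in the GRCm38 annotation used for names. Among the other pathway genes described, an exon of Acsl3 overlapped another gene on the same strand by 140 nt. Exons of Lpcat3, Cyp4f18 and Ptger4 overlapped genes on the opposite strand by up to 334, 114 and 82 nt.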

Additional observations from a re-analysis of the deposited data

How the results depend on the processing

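Each result was recomputed with 1 choice changed at a time, but limma on log2 TPM changes the test, the scaling and the treatment of length together. Counts here are over all 6 fitted genes. Ptgs2 and Ptges are included, though a fall from 0 h was built into their being fitted. Some alternatives also fitted Alox5, with no filter or again through its 0 h libraries, and counted it wherever it was called. The counts against 0 h therefore show only how calls move with the processing. Without Ptgs2 and Ptges they were 4, 3, 3 and 3 at 8, 24, 48 and 72 h, all falls. Of all genes 21.0%, 27.1%, 30.5% and 29.4% fell at these times. With Ptgs2 and Ptges 6, 5, 4 and 5 passed against 0 h. These stayed within 1.5 times of those values except in these cases: 3 at 24 h and 3 at 72 h when 1 CPM was asked of all libraries, which removes Ptgs2 and Ptges, and 3 at 8 h with limma on log2(TPM + 0.1). Leaving out 1 library in turn gave 3 to 7 genes at 8 h (3 without 0 h library 2 or without 8 h library 2), 4 to 6 at 24 h, 4 to 5 at 48 h and 5 to 6 at 72 h; counts above 6 include Alox5, which then passed the filter. For 24 h against 8 h the range was 1 to 2 (1 without 24 h library 1 or without 8 h library 2), and the count was 1 with only those times fitted and 1 without the 3 libraries with high Wnt2, an alternative chosen after seeing the data. For 72 h against 8 h the range was 2 to 4 (2 without 72 h library 1 or without 8 h library 1), with 1 under log2(TPM + 1), 2 under log2(TPM + 0.1) and 2 with only those times fitted. Without the 3 libraries with high Wnt2 the counts against 0 h were 7, 4, 5 and 6.

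At 2-fold in place of 4-fold the single libraries gave 5 genes for LSC to GMP, 3 for mAML to LSC and 5 for mAML to GMP. The count for LSC to GMP became 2 with log2(TPM + 1), and the single gene for mAML to LSC became 0 with library size alone and 0 with log2(TPM + 1).

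Alox5ap turned from lower to higher at 24, 48 and 72 h with library size alone (0.187, 0.135 and 0.165), log2(TPM + 1) (0.391, 0.463 and 0.490), log2(TPM + 0.1) (0.392, 0.464 and 0.490) and the length trend removed (0.218, 0.286 and 0.220; adjusted p = 0.0608, 0.0203 and 0.0548). The cause was not tested.

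With the replicate number as a block the counts over the 6 genes were 5, 5, 4 and 5. Ptges, given with no test, left the count at 8 h (-2.23), and no other call in the 10 genes changed at a single time. The counts of the 39 other pathway genes then moved by at most 1 in each direction at each time. Correlations of same-numbered deviations between times ran from -0.408 to 0.644. The largest in size (0.644, -0.402 and -0.408) were among 8, 24 and 72 h, the times that hold a library with high Wnt2. With 2 libraries a time these values cannot decide whether the numbers pair the samples. Hpgd had 1 count in 10 libraries and could be fitted only with no filter on low counts, where its change rests on that count (2.22 at 24 h, adjusted p = 0.639). Depth limits Hpgd, Hpgds, Alox5 and Ltc4s in the time course, and Ptgs2 and Ptges in part.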
